A study of Mus musculus with 8 samples.

Results

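Krtdap, Sbsn and Dmkn are 3 neighbouring genes for secreted proteins of the upper epidermis, and they were followed here in dorsal skin of Tph1 knockout and wild-type mice. They were chosen by symbol, from 55488 genes in the gene tables, as a chromosomal cluster of such genes within 20 Mb of Tph1, and with their lower levels in knockout skin already known. The levels of the 3 genes in knockout against wild-type skin are therefore given as a description, and where the threshold of the test over all genes is mentioned for them it serves only to place them in that table. The study profiled dorsal skin of 3-month-old mice by bulk RNA-seq, with 4 libraries labelled TPH1 knockout and 4 labelled WT, for wild type. No treatment is given for either genotype, and the labels give neither the strain, the sex, the litter nor the design of the knockout allele. Whether every library is a separate mouse is not stated either, so the p-values speak for the scatter among these 8 libraries. Replicate numbers only name libraries and pair none of them.

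Stratified epithelia renew from a basal layer whose daughter cells move outward through the spinous and granular layers and end as the dead, cross-linked cells of the cornified layer. Krtdap encodes keratinocyte differentiation-associated protein, Sbsn encodes suprabasin and Dmkn encodes dermokine. All are secreted by suprabasal keratinocytes, and their genes lie side by side in mammals. Dermokine is made as several isoforms from different start sites. Tph1 encodes the tryptophan hydroxylase that starts serotonin synthesis outside the brain, and the comparison asks how skin differs when that enzyme is lost.

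All 3 genes lie on the plus strand of chromosome 7 in GRCm38, within 39.6 kb. Sbsn (ENSMUSG00000046056) runs from 30751471 to 30756134, Dmkn (ENSMUSG00000060962) from 30763756 to 30781063 and Krtdap (ENSMUSG00000074199) from 30787896 to 30791097. The gap between Sbsn and Dmkn is 7.62 kb and that between Dmkn and Krtdap is 6.83 kb. The whole cluster lies 15.9 Mb from Tph1 on the same chromosome. Its genes differ in structure: the protein-coding transcripts are 432 to 2221 bases long for Sbsn, 662 to 2063 bases for Dmkn and 323 to 470 bases for Krtdap. The longest transcripts of Dmkn begin at the 5′ end of the gene and its 662-base transcript begins inside it, at 30776401.

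The promoter windows below show what the cluster's start sites share in sequence. Each runs from 250 bases before to 50 bases after a start site of RefSeq on GRCm38.p6. Capitals mark matches to TGANTCA, the core of AP-1 (Fos and Jun dimers) sites with its middle base left open. The usual core has C or G there, whereas the matches and shares below allow any base. TGANTCA reads the same on both strands, and the other motifs below were searched on both.
Sbsn, chr7:30751221-30751520, plus strand: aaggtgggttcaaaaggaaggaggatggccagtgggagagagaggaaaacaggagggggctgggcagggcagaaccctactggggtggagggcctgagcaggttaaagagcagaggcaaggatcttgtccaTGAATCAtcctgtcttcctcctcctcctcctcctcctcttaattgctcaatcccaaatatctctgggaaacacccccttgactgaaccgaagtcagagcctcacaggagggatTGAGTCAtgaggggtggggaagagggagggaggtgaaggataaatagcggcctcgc
Dmkn, long transcripts, chr7:30763506-30763805, plus strand: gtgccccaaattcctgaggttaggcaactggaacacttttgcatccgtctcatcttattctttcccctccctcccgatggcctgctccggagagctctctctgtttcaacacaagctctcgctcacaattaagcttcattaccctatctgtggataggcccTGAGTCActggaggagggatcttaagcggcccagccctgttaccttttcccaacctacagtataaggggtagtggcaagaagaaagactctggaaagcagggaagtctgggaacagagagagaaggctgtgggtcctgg
Dmkn, short transcript, chr7:30776155-30776454, plus strand: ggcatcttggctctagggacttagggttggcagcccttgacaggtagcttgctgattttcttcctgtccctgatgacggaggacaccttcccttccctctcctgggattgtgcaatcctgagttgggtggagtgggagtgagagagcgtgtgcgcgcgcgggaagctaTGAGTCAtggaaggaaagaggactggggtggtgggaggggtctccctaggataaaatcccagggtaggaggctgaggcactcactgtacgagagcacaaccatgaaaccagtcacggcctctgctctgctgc
Krtdap, chr7:30787655-30787954, plus strand: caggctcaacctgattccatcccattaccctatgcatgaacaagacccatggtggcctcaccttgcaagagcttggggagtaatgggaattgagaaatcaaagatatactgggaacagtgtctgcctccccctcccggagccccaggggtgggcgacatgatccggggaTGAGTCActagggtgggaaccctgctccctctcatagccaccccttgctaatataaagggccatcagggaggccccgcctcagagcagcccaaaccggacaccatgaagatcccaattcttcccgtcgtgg
Every window held a match. In Sbsn the matches began 119 and 6 bases upstream of the start used, 30751471, the farther one with A and the nearer one with G at the open position. The 2221-base Sbsn transcript starts farther downstream, at 30751533, and has no window of its own here. The match began 89 bases upstream in the long Dmkn window, 82 bases upstream in the internal Dmkn window and 81 bases upstream in Krtdap, with G at that position in each. Among 32851 RefSeq promoter windows of 300 bases, 7.81% held at least 1 match and 0.460% held at least 2. The letters TATAAA were found in the Krtdap window alone of these 4, 30 bases upstream of the start, against 13.6% of all windows. AACCNGTT, a core bound by Grainyhead-like factors, was on neither strand of the 4 windows and on either strand in 2.09% of all windows. The motifs were picked after the windows had been read, and a match is a run of letters and not a measured binding site.

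The libraries held 20.5 to 24.7 M expected counts, RSEM's estimates of reads per gene, with 23.1 ± 1.51 M in knockout and 22.9 ± 1.73 M in wild type (SD, n = 4 each). Tph1 had 0 counts in each knockout library, against 18, 0, 27 and 11 counts in the wild-type libraries, so wild-type replicate 2 is not separated from the knockouts by this gene. Of the epidermal markers, 12 of 12 basal and 20 of 20 spinous genes passed the filter on low counts, which does not require counts in every library. Muscle RNA was also plentiful in these skin samples. Mitochondrial genes took 7.50% to 10.7% of the counts in knockout libraries and 4.19% to 8.40% in wild-type libraries. Of 16908 genes tested with edgeR, 90 were lower and 20 higher in knockout at an adjusted p under 0.05. DESeq2 called 643 lower and 341 higher, and limma on log2(TPM + 1) called 18 lower and 10 higher.

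All 3 genes of the cluster were among the abundant mRNAs of the skin, and each averaged 38.6% to 43.1% of its wild-type TPM in knockout skin. TPM, the share of all transcripts scaled to a fixed total, takes transcript length into account and so allows levels of different genes to be compared. The summed TPM of the trio was 4337 ± 1462 in knockout, with a range of 2865 to 6244, against 10933 ± 1562 in wild type, with a range of 9461 to 12462 (SD, n = 4 each). The ranges do not meet. Bulk RNA cannot tell fewer cells of a type apart from less RNA per cell.

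Krtdap had the highest TPM of the trio in 8 of 8 libraries. Its TPM was 1605, 2056, 3262 and 2521 in knockout replicates 1 to 4, against 6920, 4579, 7144 and 5784 in wild-type replicates 1 to 4. Its CPM, the count relative to the TMM-scaled library size without regard to length, was 408.9, 434.2, 425.5 and 537.3 in knockout, against 972.3, 931.6, 1463 and 1300 in wild type. In CPM the mean of Krtdap was the lowest of the trio. It was 451 in knockout, against 944 for Sbsn and 652 for Dmkn. In wild type it was 1167, against 2086 for Sbsn and 1488 for Dmkn. The knockout and wild-type libraries do not overlap for Krtdap on either scale, and its knockout libraries lie close together in CPM. The log2 fold change of Krtdap in knockout over wild type was -1.37 ± 0.21 (SE).

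Sbsn was the steadiest of the trio in wild-type skin. Its CPM was 664.9, 826.2, 1155 and 1131 in knockout, against 2122, 2085, 2036 and 2102 in wild type. The SD over wild-type libraries was 36.9 CPM, while the knockout libraries spread over 239 CPM (SD, n = 4 each), with replicates 1 and 2 low. In TPM, Sbsn had 708.9, 986.3, 1467 and 1179 in knockout, against 2562, 2429, 2964 and 2126 in wild type. The groups do not overlap on either scale, and the log2 fold change was -1.14 ± 0.23 (SE). A same-strand non-coding gene, Tmem147os, overlaps all but the last bases of Sbsn, and RSEM divides shared reads between them. Tmem147os received 0.123% to 0.884% of the expected counts of both genes in knockout libraries and 0.0509% to 0.268% in wild-type libraries.

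Dmkn varied most. Its CPM was 355.4, 322.4, 1226 and 703.2 in knockout, against 2203, 1607, 940.7 and 1200 in wild type. The groups overlap, because knockout replicate 3 lies above wild-type replicates 3 and 4. In TPM the same libraries had 551.4, 571.8, 1515 and 925.1 in knockout, against 2980, 2453, 1983 and 1809 in wild type, with no overlap. The log2 fold change was -1.19 ± 0.45 (SE) in counts, and -1.36 ± 0.27 (SE) with an offset for the effective gene length of each library.

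**Figure D1:**
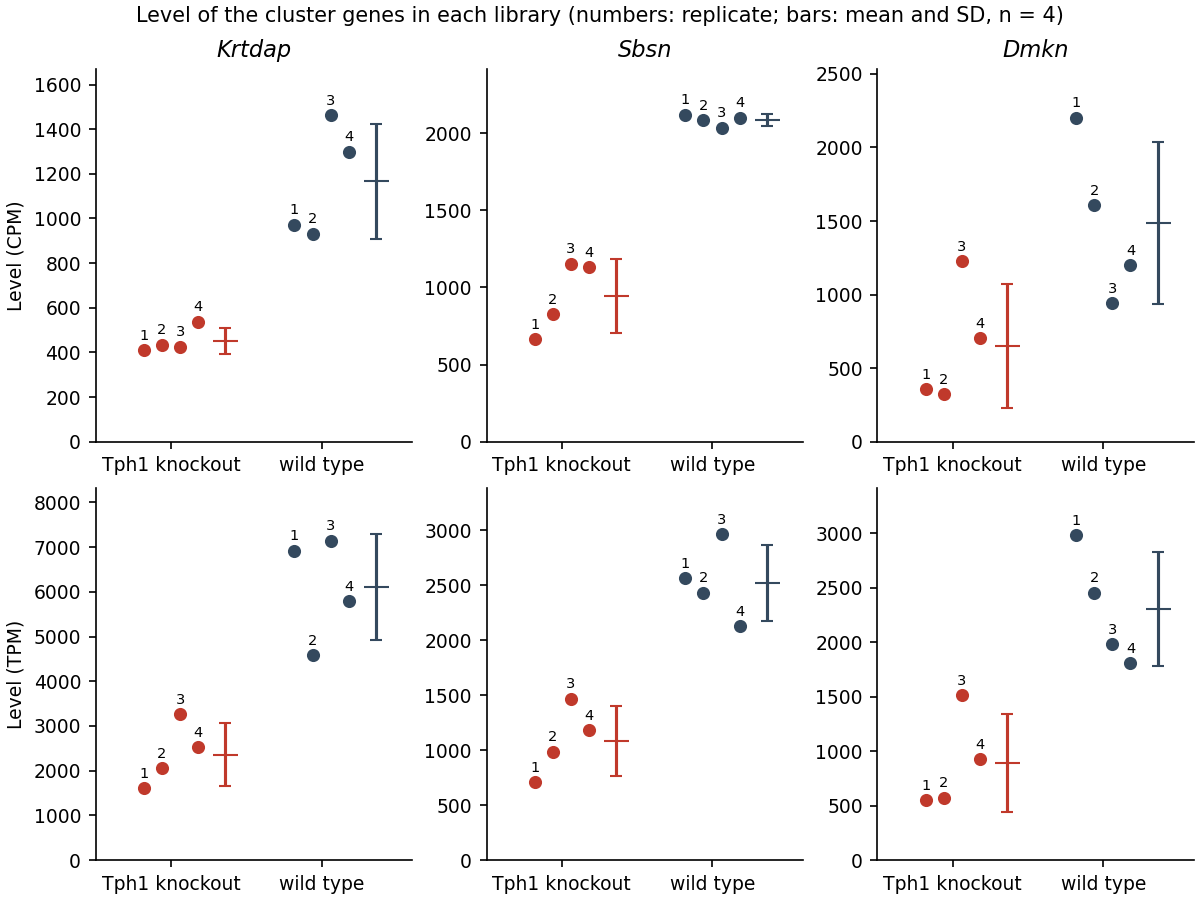
Level of Krtdap, Sbsn and Dmkn in each library, in CPM (upper row) and TPM (lower row), with knockout libraries in red on the left and wild-type libraries in dark blue on the right; numbers name replicates and bars give the mean and SD (n = 4 each). In every panel but Dmkn in CPM the knockout libraries lie below all wild-type libraries.

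Under the threshold of 0.05, 1 of the 3 genes (Krtdap) was called lower, where 0.532% of all tested genes were called lower and 0.118% higher. All 4 knockout libraries lay below all 4 wild-type libraries for 2 of the 3 genes in CPM, against 5.65% of tested genes, and for 3 of 3 in TPM, against 5.30%. These counts describe genes picked for this contrast and test nothing about them. The call on Krtdap was lost when any of 6 libraries was left out, namely knockout replicates 1, 2 and 4 and wild-type replicates 1, 3 and 4, while its log2 fold change stayed between -1.47 and -1.24. Sbsn lay just outside the threshold and was called lower with the length offset, where 0.396% of tested genes were called lower, and with DESeq2, where 3.80% were. Dmkn was not called by any of the alternatives, and its log2 fold change ran from -1.69 without knockout replicate 3 to -0.94 without wild-type replicate 1.

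**Figure D2:**
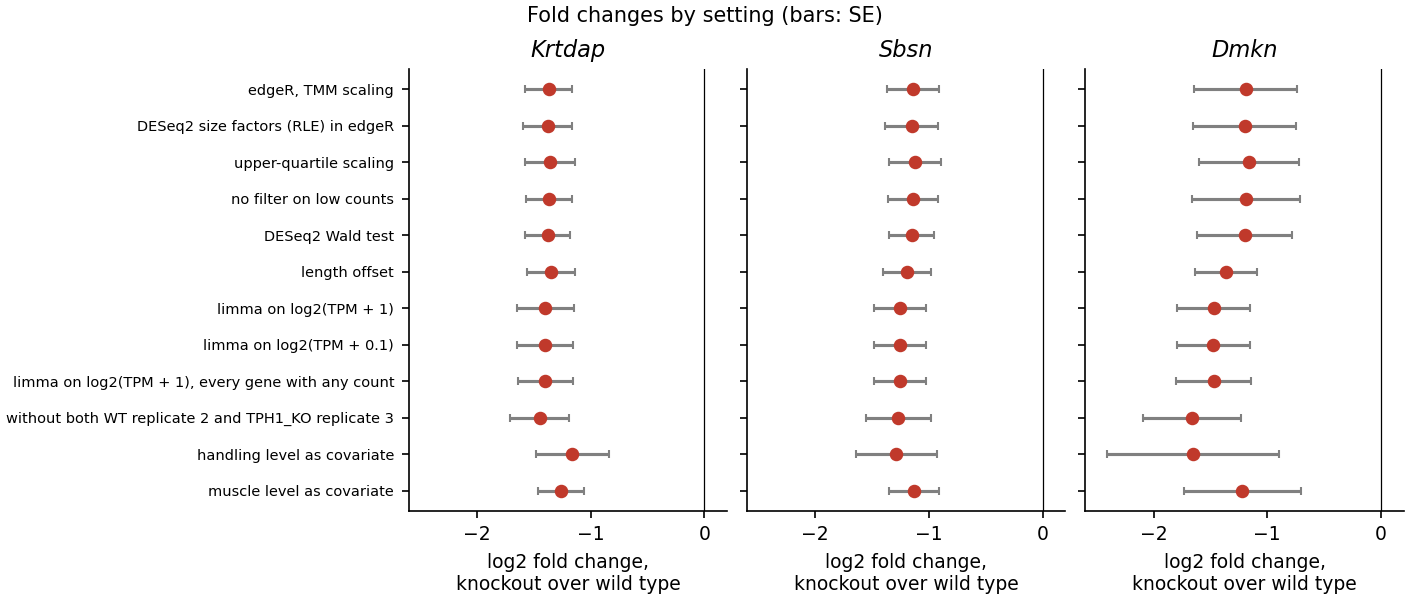
Log2 fold change of knockout over wild type for each gene (x axis, bars give the SE) under the main setting and 11 alternatives (rows). Every point lies left of 0, with Krtdap between -1.45 and -1.16, and the SE of Dmkn narrows to 0.27 with the length offset.

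The composition of the trio was nearly the same in both genotypes although its total differed. Krtdap made up 54.9 ± 2.03% of the summed TPM in knockout and 55.6 ± 5.14% in wild type. Sbsn made up 25.3 ± 1.59% in knockout and 23.2 ± 2.35% in wild type. Dmkn made up 19.8 ± 3.47% in knockout and 21.2 ± 4.45% in wild type (SD, n = 4 each throughout). For each gene the difference between the means is smaller than the larger of the group SDs. Sbsn and Dmkn are not ordered beyond their spread: Sbsn had the higher TPM in 3 of 4 knockout and 2 of 4 wild-type libraries. Among all genes ranked by mean TPM, Krtdap, Sbsn and Dmkn stood at 44, 104 and 142 in knockout and at 16, 52 and 57 in wild type.

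The length of a gene's transcripts, weighted by how much of each isoform RSEM estimated, played no part in the choice of the genes and summarises RSEM's isoform estimates. It did not separate the genotypes for any of the 3 genes, but it moved strongly from library to library for Dmkn. Dmkn transcripts averaged 830.5, 854.6, 1400 and 1051 bases in knockout, against 1227, 992.2, 764.9 and 896.8 bases in wild type. The longest value, in knockout replicate 3, was 1.83 times the shortest, in wild-type replicate 3. Within each genotype, too, RSEM's estimates for Dmkn leaned to longer transcripts in some libraries and to shorter ones in others. The means were 1034 ± 263 bases in knockout and 970 ± 195 bases in wild type, a difference of 63.9 bases (two-sided exact permutation p = 0.686, adjusted p = 0.83 over the 3 genes).

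Sbsn averaged 1249 ± 98.0 bases in knockout and 1230 ± 133 bases in wild type (SD, n = 4 each; exact permutation p = 0.83). Krtdap averaged 397 ± 25.7 bases in knockout and 394 ± 25 bases in wild type (SD, n = 4 each; exact permutation p = 0.686). The coefficient of variation of this length over the 8 libraries was 21.7% for Dmkn, 8.75% for Sbsn and 5.95% for Krtdap. The median over 9245 genes with several transcripts was 4.23%, and 98.0% of these genes varied less than Dmkn.

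The libraries with long Dmkn transcripts were those in which RSEM subtracted most bases to reach the effective length, a measure of the fragment lengths in a library. The subtraction was 143.5, 144.8, 161.9 and 152.5 bases in knockout, against 155.6, 142.6, 144.9 and 145.2 bases in wild type. Knockout replicate 3 and wild-type replicate 1 had the largest subtraction, the longest Dmkn and Sbsn transcripts and the shortest Krtdap transcripts, at 358.9 and 356.9 bases. The part of fragment length in the isoform estimates was not tested.

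**Figure D3:**
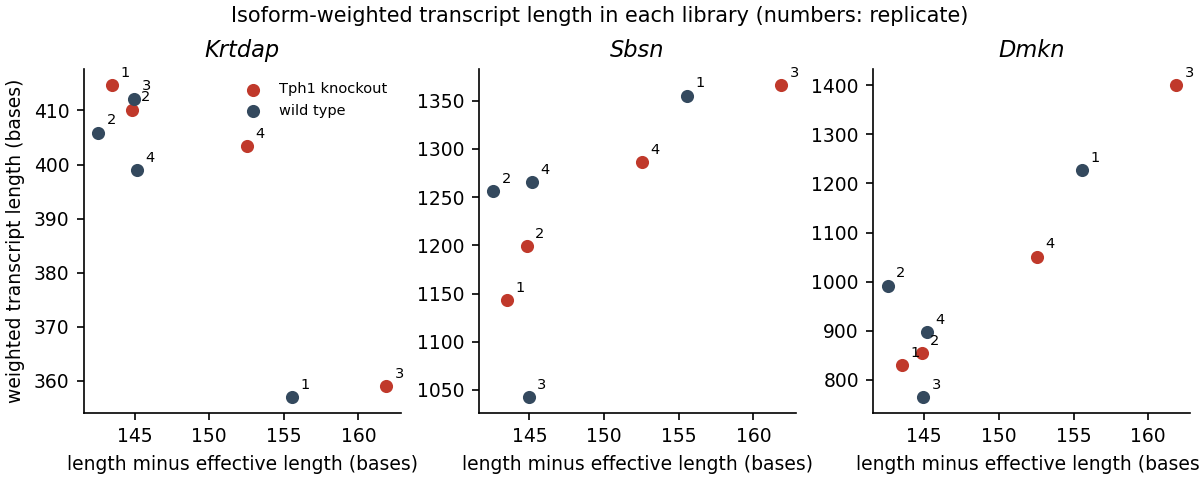
Isoform-weighted transcript length of each gene (y axis, bases) against the bases RSEM subtracted to reach the effective length (x axis), with 1 point per library, red for knockout and dark blue for wild type, and numbers naming replicates. Knockout replicate 3 and wild-type replicate 1 stand apart on the right, low for Krtdap and high for Sbsn and Dmkn, and the y axes do not start at 0.

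The genes around the cluster did not fall with it as a block. Of 84 other genes annotated within 500 kb, 46 were tested, and 1 fell and none rose at an adjusted p under 0.05, against 0.651% of all tested genes called by edgeR in either direction. At an unadjusted p under 0.05, 6 of the 46 were lower and 3 higher, and DESeq2 called 1 lower and 2 higher. Over all tested genes 17.6% had an unadjusted p under 0.05 in either direction and DESeq2 called 5.82%, so the neighbours lie near the background. Their median log2 fold change was 0.01, with 22 of 46 below 0, against a median of 0.03 over all tested genes. All knockout libraries lay below all wild-type libraries for 2 neighbours and above them for 2, or 4 of 46, where 11.0% of all tested genes had the groups apart in either direction.

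The neighbour that fell was Lsr, the lipolysis-stimulated lipoprotein receptor, which also sits at corners where epithelial cells meet. Lsr (ENSMUSG00000001247, chromosome 7, 30957770 to 30973464), 167 kb from the cluster, had 55.3 ± 7.34 CPM in knockout and 117 ± 9.53 CPM in wild type (SD, n = 4 each). Its log2 fold change was -1.08 ± 0.13 (SE, edgeR adjusted p = 0.00899), and it was no longer called without knockout replicate 1, 2 or 4. The closest tested protein-coding genes on either side were Gapdhs and Ffar2. Gapdhs, a sperm glycolytic enzyme, had 0.281 CPM in knockout and 0.545 CPM in wild type (-0.95 ± 0.59 SE on the log2 scale, edgeR adjusted p = 0.419). Ffar2, a receptor for short-chain fatty acids, had 3.82 CPM in knockout and 7.31 CPM in wild type (-0.93 ± 0.44 SE on the log2 scale, edgeR adjusted p = 0.305). Neither passed the test.

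**Figure D4:**
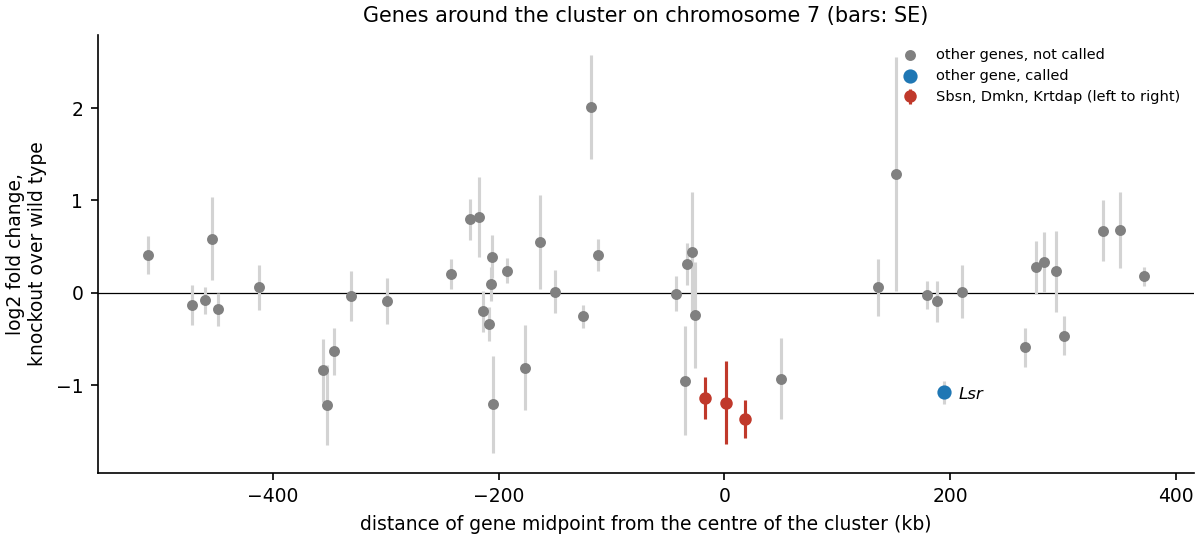
Log2 fold change of knockout over wild type (y axis, bars give the SE) of tested genes around the cluster, by distance of the gene midpoint from the centre of the cluster (x axis, kb). The cluster genes in red lie between -1.37 and -1.14, Lsr in blue at -1.08, and the other genes in grey scatter on both sides of 0.

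On chromosome 7 as a whole, 28 of 1338 tested genes were called, or 2.09%, against 81 of 15543, or 0.521%, on the other chromosomes. The stretch 15 to 20 Mb from Tph1 that holds the cluster had 5 called genes of 160, all lower. Named after their values were seen, they are Krtdap, Lsr, Nccrp1, Pld3 and Pak4. Of the 47 tested genes between 5 and 15 Mb on the same side of Tph1, edgeR called none, DESeq2 called 3, and 8 had an unadjusted p under 0.05, near the shares of 5.82% and 17.6% over all genes, while 11 of 125 were called within 5 Mb on that side. The Tph1 allele and any stretch of chromosome 7 inherited with it cannot be told apart in this design.

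Some genes of 4 other epidermal lists fell, but most members of each list did not pass the test. In the spinous list, 4 of 20 tested genes fell and none rose, 20 of 20 had a negative log2 fold change and the median was -0.59. In the granular layer and cornified envelope list, 3 of 45 fell and none rose, 41 were negative and the median was -0.93. Among 16 other genes listed as secreted epidermal proteins, 2 fell and none rose, 15 were negative and the median was -0.90. That list also holds membrane-bound proteins such as Dsg1c, and it shares Cdsn, Spink5 and Cst6 with the granular list. Among 32 transcription factors of epidermal differentiation, 1 fell and none rose, 24 were negative and the median was -0.43. Of 12 basal keratinocyte markers none was called, 9 were negative and the median was -0.32. Over all tested genes 46.9% were negative, the median was 0.03 and 0.532% were called lower. At an unadjusted p under 0.05 in edgeR, 14 spinous, 24 granular, 10 secreted, 15 transcription factor and 2 basal genes were lower, where 9.37% of all tested genes were, and 1 transcription factor was higher. DESeq2 called 13, 17, 6, 10 and 0 genes of these lists lower in the same order, where it called 3.80% of all tested genes lower, and none higher.

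Of the spinous genes, Calm4, a calmodulin-like protein, had 175 ± 36.7 CPM in knockout and 509 ± 101.2 CPM in wild type (SD, n = 4 each). Its log2 fold change was -1.54 ± 0.21 (SE, edgeR adjusted p = 0.0202). Lypd3, a membrane-anchored protein of suprabasal cells, had 82.5 ± 8.80 CPM in knockout and 218 ± 47.5 CPM in wild type (SD, n = 4 each). Its log2 fold change was -1.40 ± 0.17 (SE), at an edgeR adjusted p of 0.0111. The keratin Krt78 and the thioesterase Them5 had log2 fold changes of -1.11 and -1.05 (edgeR adjusted p = 0.0220 and 0.0324) and fell as well.

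Of the cornified envelope genes, Lor, the gene of loricrin, had 799 ± 220 CPM in knockout and 2212 ± 241 CPM in wild type (SD, n = 4 each). Its log2 fold change was -1.47 ± 0.24 (SE, edgeR adjusted p = 0.0379). Crct1, a gene of the epidermal differentiation complex, and the protease gene Klk8 also fell, with log2 fold changes of -1.40 and -1.25 (edgeR adjusted p = 0.0324 for each). Alox12b, the lipoxygenase of the skin lipid barrier, had 21.6 CPM in knockout and 60.5 CPM in wild type, with an edgeR adjusted p of 0.0538.

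Of the secreted proteins, Wfdc21 had 20.2 ± 4.49 CPM in knockout and 54.2 ± 2.80 CPM in wild type (SD, n = 4 each). Its log2 fold change was -1.43 ± 0.16 (SE), at an edgeR adjusted p of 0.00864. Wfdc5, of the same family of small protease-inhibitor-like proteins, fell by 1.45 on the log2 scale (edgeR adjusted p = 0.0473). Il1rn, the secreted antagonist of interleukin-1 receptors, had 32.2 CPM in knockout and 57.7 CPM in wild type (edgeR adjusted p = 0.0900). Bpifc, a member of the lipid-binding BPI family, had 37.6 CPM in knockout and 76.0 CPM in wild type (edgeR adjusted p = 0.0952). Of the transcription factors, Cebpb had 75.7 CPM in knockout and 132 CPM in wild type, which gives -0.81 ± 0.13 (SE) on the log2 scale and an edgeR adjusted p of 0.0324. Grhl3, the Grainyhead-like factor of barrier formation, had 23.1 CPM in knockout and 54.9 CPM in wild type (edgeR adjusted p = 0.0646). Fosl1, a Fos-family subunit of AP-1, had 0.0416 to 0.566 CPM in knockout and 1.71 to 40.1 CPM in wild type. It did not pass the test (log2 fold change -5.64 ± 1.16 SE, adjusted p = 0.0675 in edgeR), and its wild-type libraries spread widely. Ovol1, a zinc-finger factor, had 25.3 CPM in knockout and 59.0 CPM in wild type (edgeR adjusted p = 0.0824).

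**Figure D5:**
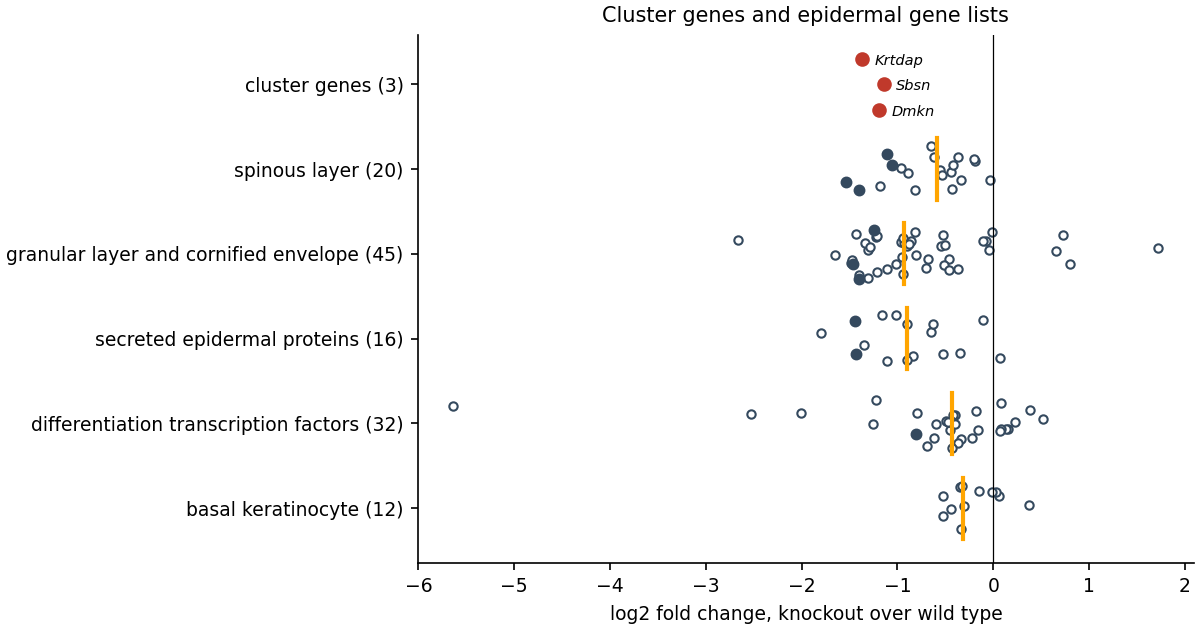
Log2 fold change of knockout over wild type (x axis) for the cluster genes in red and for each tested gene of 5 epidermal lists (rows, number tested in brackets), with list genes at an edgeR adjusted p under 0.05 filled and orange bars at list medians. The cluster genes, chosen with their lower levels known, lie left of every list median, which run from -0.93 for the granular list to -0.32 for the basal list. Single list genes, such as Calm4 and Lor, lie farther left than any cluster gene.

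These calls hang on single libraries. Of the 10 list genes called, 1, 0, 10 and 1 remained called without knockout replicates 1, 2, 3 and 4, and 2, 7, 4 and 2 without wild-type replicates 1, 2, 3 and 4. Libraries also differed in genes outside the epidermis. Of 20 immediate early and heat shock genes, which respond to handling of tissue, 1 was called (Nr4a1, lower, log2 fold change -2.18 ± 0.33 SE, edgeR adjusted p = 0.0324), 19 were negative and the median was -1.37. At an unadjusted p under 0.05, 16 of the 20 were lower, and DESeq2 called 10 lower. Their summed level was 3195 to 5985 CPM in knockout and 4160 to 18069 CPM in wild type. Of 14 skeletal muscle genes edgeR called none, DESeq2 called 1, 2 had an unadjusted p under 0.05 and 14 were positive, with a summed level of 66522 to 119113 CPM in knockout and 16389 to 107008 CPM in wild type. With the mean level of the handling list as a covariate, the log2 fold change was -1.16 ± 0.32 for Krtdap, -1.29 ± 0.36 for Sbsn and -1.65 ± 0.76 for Dmkn. With that of the muscle list it was -1.26 ± 0.20, -1.13 ± 0.22 and -1.22 ± 0.51 for the same genes (SE throughout), and none of the 3 was called under either covariate. Hair genes had a summed level of 24.0 to 1429 CPM in knockout libraries and 34.5 to 217.6 CPM in wild-type libraries. Of 12 tested, 2 were negative and the median log2 fold change was 1.87, opposite in sign to the epidermal lists. Of these 12, 0 were called by edgeR or DESeq2, and 1 was higher at an unadjusted p under 0.05 in edgeR. Of 8 immune genes 7 were negative (median -0.61), of 5 mast cell genes 4 (median -0.67) and of 10 adipocyte genes 8 (median -0.53), medians about as low as that of the spinous list. Fibroblast genes had 7 of 10 negative (median -0.32), sebaceous genes 2 of 9 (median 0.09) and endothelial genes 3 of 7 (median 0.04). edgeR called none of these 6 lists' genes, DESeq2 called 1 immune gene lower, and at an unadjusted p under 0.05 there were 3 immune, 1 mast cell and 1 sebaceous gene lower and 1 adipocyte gene higher. The summed immune level was 344.8 to 919.3 CPM in knockout and 652.6 to 991.1 CPM in wild type, and the adipocyte level 1904 to 4694 CPM in knockout and 3706 to 4888 CPM in wild type. Mast cell genes summed to 20.2 to 72.8 CPM in knockout and 34.1 to 113 CPM in wild type. The filter on low counts by itself leaves no tested gene of these lists at 0 in every library. The part of other cell types in the levels of the trio was not tested.

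How alike the 3 genes vary within genotypes depended on the scale. Each library's log2(CPM + 1) was set against the mean of its own genotype. Over the 8 libraries, Sbsn and Dmkn moved together (Pearson r = 0.77, Spearman rho = 0.93, and r = 0.64 without the 2 libraries farthest from the median). Krtdap and Sbsn had r = 0.25 and rho = 0.05, and r = 0.07 without the 2 farthest. Krtdap and Dmkn had r = -0.29 and rho = -0.24, and r = -0.29 without the 2 farthest. On log2(TPM + 1) the pairs had r = 0.78, 0.88 and 0.72 in the same order, so the sign for Krtdap and Dmkn turned. The median r over all genes compared was then 0.45 with Krtdap, 0.51 with Sbsn and 0.51 with Dmkn, against -0.06, -0.05 and -0.01 on the CPM scale. Correlations with the trio were thus higher on the TPM scale over all genes too, although these medians lie below the values of the 3 pairs. The points are the 8 libraries, of similar depth, and no p-value is given.

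Likeness was searched among 10137 genes with a mean of at least 10 CPM. The trio itself, predicted genes, pseudogenes and non-coding genes were left out of the genes named here and below. Of the rest, those most like Dmkn were Ugt1a1, Scd2, Sqle, Dsc1 and Krt10, with r from 0.98 to 0.99 over the 8 libraries. Their rho was 0.98, and r ran from 0.97 to 0.99 without the 2 farthest. Krt10 is the main keratin of spinous cells, Dsc1 a desmosomal cadherin, and Scd2 and Sqle are enzymes of fatty acid and sterol synthesis. Ugt1a1 shares exons with other genes of its family, so its counts depend on how RSEM divided the reads. Krt10 had 2030 ± 835 CPM in knockout and 3945 ± 1284 CPM in wild type (SD, n = 4 each), and it did not pass the test (-0.96 ± 0.35 SE on the log2 scale, edgeR adjusted p = 0.214).

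The genes most like Sbsn were Erdr1, Otop3, Serpina12, Htatip2 and Elovl1, with r from 0.93 to 0.98, rho from 0.79 to 1 and r from 0.74 to 0.98 without the 2 farthest libraries. Otop3, a proton channel, fell, with a log2 fold change of -1.05 (edgeR adjusted p = 0.0324). Htatip2, on chromosome 7 like Tph1 and the cluster, fell too, with a log2 fold change of -3.59 (edgeR adjusted p = 0.00802). Its mean was 1.57 CPM in knockout, with a range of 0.509 to 2.48, against 19.0 CPM in wild type. The knockout part of its likeness to Sbsn therefore comes from a low level. Those most like Krtdap were Cep162, Nccrp1, Mill1, Ogfrl1 and Hpcal1, with r from 0.91 to 0.95, rho from 0.88 to 0.98 and r from 0.74 to 0.88 without the 2 farthest libraries. Nccrp1, also on chromosome 7, had 52.8 CPM in knockout and 140 CPM in wild type, which gives -1.41 ± 0.23 (SE) on the log2 scale and an edgeR adjusted p of 0.0373. For the mean of the 3 genes the closest were Serpina12, Agpat4, Sdr16c5, Erdr1 and Prcp, with r from 0.97 to 0.99, rho from 0.93 to 1 and r from 0.91 to 0.99 without the 2 farthest libraries. Serpina12 encodes a secreted serine protease inhibitor, vaspin, and Agpat4, an acyltransferase of phospholipid synthesis, fell by 1.22 on the log2 scale (edgeR adjusted p = 0.0379).

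On the CPM scale, the median r of the spinous genes was 0.79 with Dmkn, 0.61 with Sbsn and -0.01 with Krtdap. For the granular genes it was 0.68, 0.64 and 0.11 in that order, and for the secreted list 0.86, 0.79 and -0.10. The transcription factors had -0.10, -0.14 and 0.04. Basal keratinocyte genes had -0.64, -0.48 and 0.14. Lists from other cells gave values like those of the upper epidermis, with 0.87, 0.78 and -0.14 for the sebaceous, 0.80, 0.50 and -0.41 for the immune and 0.55, 0.52 and 0.04 for the endothelial genes. On the TPM scale the spinous genes had 0.85, 0.74 and 0.75, the granular genes 0.79, 0.75 and 0.77, and the secreted list 0.94, 0.79 and 0.81. The sebaceous genes had 0.95, 0.81 and 0.79, the immune genes 0.86, 0.57 and 0.60, and the endothelial genes 0.72, 0.74 and 0.85. High values with Krtdap on this scale were thus not particular to the upper epidermis. The transcription factors had 0.53, 0.57 and 0.57, and the basal genes stayed low, at 0.03, 0.23 and 0.12.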

How the data were processed

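Dorsal skin RNA of 4 Tph1 knockout and 4 wild-type libraries was sequenced from NEBNext Ultra libraries, per the labels' protocols. That kit does not mark strand, so overlapping genes on opposite strands cannot be told apart. Tools named in the submitters' processing notes are STAR 2.7.6a, RSEM 1.31, DESeq2 and DESeq, the build is GRCm38, and the annotation per the labels is Ensembl 101.

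The authors deposited, per library, RSEM expected counts (estimated reads per gene, not normalized), TPM, FPKM, transcript length and effective length, per the file headers. FPKM was not used. The authors also deposited a matrix whose signal values are, per the labels, DESeq2-normalized. The ratio of count to matrix value matched its library's median ratio to within 1% for 28.4% to 37.5% of 13842 genes, and for 100% after division by relative effective length, so these values carry a length correction.

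Rounded expected counts entered edgeR 4.0.16 under R 4.3.3 (filterByExpr with minimum count 10 and minimum total 15, TMM scaling, robust quasi-likelihood F test, genotype as the only term), with Benjamini-Hochberg adjustment over 16908 genes and a threshold of 0.05. The SE is the size of the log2 fold change over the square root of F. Alternatives used limma 3.58.1 and DESeq2 1.42.0. The fit was tested on simulated data. Transcript lengths were compared by two-sided exact permutation over 70 assignments, where 0.0286 is the smallest p. Likeness is the correlation of deviations from the genotype mean of log2(CPM + 1).

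The genes, lists and tests were chosen with earlier results of these data known. Besides the 3 genes and Tph1, the rule names the nearest tested gene on each side, called neighbours and up to 4 genes with the smallest p per list. It also names the 5 most alike protein-coding genes, with predicted genes left out. Symbols came from the authors' matrix for 17354 genes and from a name table for 37798, and 336 had none. Coordinates are from GENCODE release M21, and promoter windows from RefSeq (GRCm38.p6) were matched for 3 of 3 genes.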

Additional observations from a re-analysis of the deposited data

Results flagged for a closer look

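Among 70 groups of 4 values searched for a library far from the others, 2 had a gap to the nearest value above Dixon's critical share of the group's range, where chance flags about 1 in 20 groups. The first was Sbsn in wild-type replicate 3, with 57136 in the authors' normalized, length-corrected matrix and a gap of 0.864 of the range. The same library had the shortest Sbsn transcripts of the 8, at 1042 bases, and 2036 CPM, the lowest of the wild-type libraries. The second was the mean level of the melanocyte genes in knockout replicate 3, at 4.03 on the log2(CPM + 1) scale, with a gap of 0.857 of the range. Of the 4 tested melanocyte genes, 0 were called between genotypes by edgeR or DESeq2 and 0 had an unadjusted p under 0.05.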

How the results depend on the processing

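The log2 fold changes of Krtdap, Sbsn and Dmkn kept their sign under every alternative run, between -1.47 and -1.16, -1.29 and -1.01, and -1.69 and -0.94. The number of genes called moved far more: against 110, it was 984 with DESeq2, 28 and 29 with limma on log2(TPM + 1) and log2(TPM + 0.1), 14 on log2(TPM + 1) over every gene with any count, 167 without both wild-type replicate 2 and knockout replicate 3, 6 with the handling covariate, 26 with the muscle covariate, and 8 to 170 when 1 library was left out. Of the 3 genes, 2 were called with no filter on low counts, with DESeq2 and with the length offset, 0 with the 3 limma fits and with either covariate, and 0 to 1 when 1 library was left out, against 1. Krtdap lost its call with limma (-1.40 in each fit), under the covariate for handling (-1.16) and under that for muscle (-1.26), and without 1 library it ran from -1.47 to -1.24. Sbsn gained a call with no filter (-1.14), DESeq2 (-1.15) and the length offset (-1.19). The difference in weighted length was 20.06 bases for Krtdap without both libraries, changed sign in effective length (-0.23 bases) and ran from -8.88 to 15.9 bases when 1 library was left out. For Sbsn and Dmkn it was -11.3 and -50.9 bases without both libraries, and without 1 library it ran from -43.3 to 60.9 and from -58.2 to 149 bases. The cause of these changes was not tested. DESeq2 called all 110 genes of the main test. No paired analysis was possible because the labels carry no replicate numbers that pair libraries.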

Other observations

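Without knockout replicates 1 and 3, the libraries farthest from the median, the within-genotype correlations on log2(TPM + 1) were 0.63 for Krtdap and Sbsn, 0.26 for Krtdap and Dmkn and 0.39 for Sbsn and Dmkn. Of the genes most like Krtdap on the CPM scale, Cep162 had r = 0.16 on the TPM scale and Hpcal1 0.94. Which scale follows the cells more closely was not tested.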
